A study of Homo sapiens with 4 samples.

Results

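Vitamin A reaches cells as retinol, and cells turn a small part of it into retinoic acid, which activates nuclear receptors of the RAR and RXR families. RDH10 oxidizes retinol to retinaldehyde and DHRS3 reduces it back. ALDH1A1, ALDH1A2 and ALDH1A3 oxidize retinaldehyde to retinoic acid, and the cytochromes CYP26A1 and CYP26B1 degrade retinoic acid. CRABP1 and CRABP2 are small cytosolic proteins that bind retinoic acid. CRABP2 is known for delivering it to RAR in the nucleus, including in breast cancer cells, and CRABP1 for holding it in the cytosol.

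These 9 genes were followed among the 60675 genes of the deposited tables. They were chosen by name, with the difference between the lines already known, so their values in that comparison are a description and carry no test. Each symbol matched 1 gene, and each gene had at least 1 read. Of them, 6 passed the filter on low counts and could enter the fit of the lines, namely CRABP1, CRABP2, ALDH1A1, CYP26B1, DHRS3 and RDH10. The other 3, ALDH1A2, ALDH1A3 and CYP26A1, were too low.

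RNA was sequenced from MM134, an estrogen receptor positive cell line from an invasive lobular breast carcinoma. The HER2 WT line (wild-type HER2, the receptor kinase encoded by ERBB2) and the HER2 L755S line (a substitution in its kinase domain) gave 2 libraries each, numbered 1 and 2 and called wild-type and mutant libraries where values are listed. Both lines were kept without estrogen for 7 days, in phenol red free medium with 5% charcoal-stripped serum. Charcoal stripping, which removes steroids, is also known to lower retinoids in serum, and no retinoid level was measured here. The sources used here do not tell how HER2 was introduced, or whether a line was 1 clone. Separate cultures are not named in the labels either, so the spread behind each p-value is that of the sequenced libraries and may be technical.

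The total expected count, an estimate of the reads per library, ran from 27423247 to 31088422. Mitochondrial transcripts took 4.03% to 4.395% of it in the number 1 libraries and 8.83% to 13.5% in the number 2 libraries. All 7 markers of luminal breast epithelium, ESR1 among them, stood above 1 TPM (a level corrected for transcript length and library size) in every library. No marker of basal epithelium, leukocytes or endothelium did so in any library. Of 5 fibroblast markers, COL1A1 was above 1 TPM, at 13.8 to 37.4 TPM, while COL3A1, DCN, LUM and PDGFRB were below it.

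Both CRABP genes were among the abundant transcripts of these cells, and the upstream sequence of the pair is shown because CRABP1 differed between the lines in every library while CRABP2 did not. The stretches run from 250 to 51 bases before the RefSeq start (GRCh38.p14), at chr15:78340103-78340302 on the plus strand for CRABP1 and at chr1:156705835-156706034 on the minus strand for CRABP2. Capitals mark CG dinucleotides, the sites of DNA methylation.
CRABP1: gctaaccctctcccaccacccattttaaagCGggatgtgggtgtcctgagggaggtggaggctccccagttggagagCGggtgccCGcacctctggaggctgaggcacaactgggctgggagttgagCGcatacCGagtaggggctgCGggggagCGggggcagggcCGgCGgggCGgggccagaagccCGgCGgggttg
CRABP2: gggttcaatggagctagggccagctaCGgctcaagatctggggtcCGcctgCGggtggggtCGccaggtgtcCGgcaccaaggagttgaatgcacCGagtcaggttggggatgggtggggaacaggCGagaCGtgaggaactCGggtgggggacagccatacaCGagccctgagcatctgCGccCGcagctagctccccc
Each stretch holds 12 CG dinucleotides. Over the full 250 bases before the start, each gene had 18, against a median of 11 over 35116 RefSeq promoters, of which 63.2% had fewer than 18.

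Retinoic acid receptors are known to bind direct repeats of a 6-base half-site. The half-site AGNTCA, followed on the same strand by a second AGNTCA after 5, 2 or 1 bases of any kind, was searched on both strands of the RefSeq promoters, from 250 bases before to 50 after a start. Of the 12 promoters listed for 8 of the genes, 1 had a match, that of CYP26A1 for the spacing of 5, which 0.0797% of all promoters held. The spacings of 2 and 1 were found in 0.0541% and 0.108% of promoters, and in none of these genes. No promoter was listed for RDH10. The match is shown because CYP26A1 is widely used as a readout of retinoic acid. It lies 90 to 74 bases before 1 of the 2 RefSeq starts of the gene, and is given with 3 bases on each side, at chr10:93073800-93073822 on the strand opposite to the gene, with the half-sites in capitals.
CYP26A1: attAGTTCAcccaaAGTTCAtct
A match describes these letters and does not show that a receptor was bound.

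**Figure D1:**
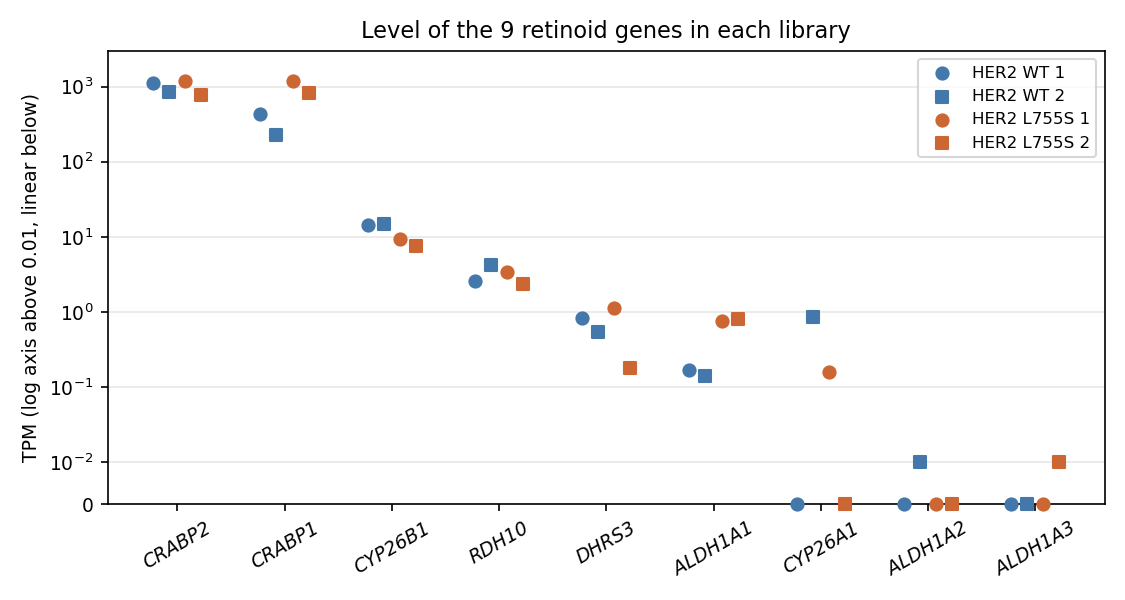
Level of the 9 genes in TPM (vertical axis, logarithmic above 0.01 and linear below) in each of the 4 libraries; circles are number 1 and squares number 2, blue is HER2 WT and orange HER2 L755S. CRABP2 and CRABP1 sit above 200 TPM in every library, and CYP26A1, ALDH1A2 and ALDH1A3 lie at 0 in at least 2 libraries.

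The 9 genes covered a wide range of levels, and the 2 binding proteins held nearly all of their summed TPM, from 98.2% in HER2 WT 2 to 99.4% in HER2 L755S 1. Ranked by mean TPM over the 4 libraries, CRABP2 stood at place 141 of 60675 genes and CRABP1 at place 206. CYP26B1 followed at a mean of 11.5 TPM, RDH10 at 3.15 TPM, DHRS3 at 0.675 TPM and ALDH1A1 at 0.468 TPM. CYP26A1 averaged 0.255 TPM, and ALDH1A2 and ALDH1A3 0.0025 TPM each. The steps from CRABP1 to CYP26B1, from CYP26B1 to RDH10 and from RDH10 to DHRS3 exceeded the spread of the libraries, since the values did not overlap. CRABP2 and CRABP1 overlapped, as did DHRS3, ALDH1A1 and CYP26A1.

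CRABP1 (ENSG00000166426, GRCh38 chromosome 15, 78340324 to 78348230) was more abundant in the HER2 L755S line. It stood at 180.2 and 97.8 CPM (counts relative to the library size, scaled with TMM) in wild-type libraries 1 and 2, and at 501 and 449.7 CPM in mutant libraries 1 and 2. Both HER2 L755S libraries lay above both HER2 WT libraries, and the wild-type pair was the more spread. The means were 139 ± 58.3 and 475 ± 36.4 CPM (SD, n = 2), which is 3.42-fold, or a log2 fold change of 1.77 (SE 0.35). Within replicate numbers the log2 difference was 1.48 for number 1 and 2.20 for number 2. The summed level of the 7 luminal markers was 6649 to 7381 TPM in the wild-type and 4929 to 5883 TPM in the mutant libraries. Most of it was the keratin KRT19, at 4574 and 4146 against 3240 and 2674 TPM. ESR1 was also lower in the mutant libraries, at 38.5 and 59.9 against 14.1 and 20.4 TPM. On TPM, KRT8 and KRT18 were lower within each number. EPCAM went the other way, at 298 and 331 against 343 and 396 TPM. GATA3 was higher within each number, at 413 and 316 against 473 and 372 TPM, and FOXA1 changed direction between numbers on TPM. These marker values are given on TPM only, which lacks the TMM scaling used for CRABP1, and a direction may differ in CPM. The part of these markers in the CRABP1 difference was not tested. In bulk RNA, fewer cells with the transcript and less of it per cell cannot be told apart.

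CRABP2 (ENSG00000143320, chromosome 1, 156699606 to 156705816), the paralog of CRABP1, was at a like level in both lines. It stood at 654 and 511 CPM in wild-type libraries 1 and 2, and at 694 and 574 CPM in mutant libraries 1 and 2. The libraries of the lines overlapped, and within each line number 1 was above number 2. The log2 fold change was 0.12 (SE 0.30), with 0.087 and 0.17 within numbers, and it was -0.052 on the deposited TPM.

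The balance of the binding proteins therefore differed between the libraries of the lines. CRABP1 stood at 429.8 and 225 TPM in wild-type libraries 1 and 2, against 1131 and 859 TPM of CRABP2. In mutant libraries 1 and 2 CRABP1 reached 1170.2 and 827 TPM, beside 1181 and 765 TPM of CRABP2. The ratio of CRABP1 to CRABP2 was thus 0.38 and 0.262 in the wild-type libraries and 0.991 and 1.08 in the HER2 L755S libraries. The ratio rests on the same CRABP1 values as the difference above and adds no separate support.

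**Figure D2:**
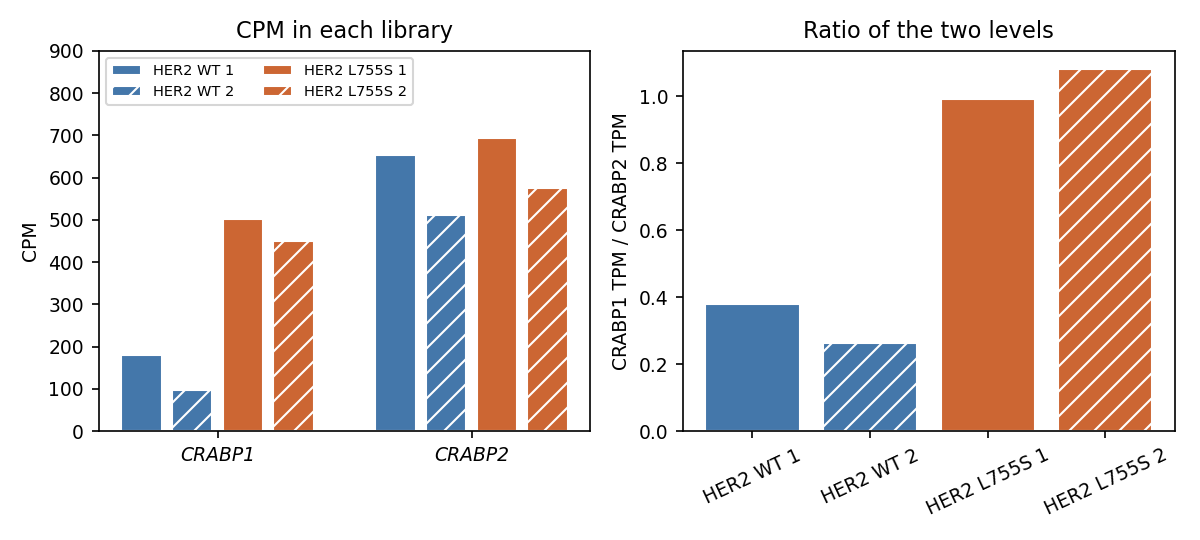
Left, CPM of CRABP1 and CRABP2 in each library (bars; blue HER2 WT, orange HER2 L755S, hatched number 2); right, the ratio of the CRABP1 to the CRABP2 level in TPM. CRABP1 is 97.8 to 180.2 CPM in HER2 WT and 449.7 to 501 CPM in HER2 L755S, while the CRABP2 bars of the lines overlap.

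The 3 retinaldehyde dehydrogenases were scarce in both lines. ALDH1A1 (chromosome 9, 72900662 to 73080442), which is also used as a marker of stem-like tumour cells, had 7 and 6 counts in wild-type libraries 1 and 2 and 32 and 39 in mutant libraries 1 and 2. The groups did not overlap, and in CPM the levels were 0.216 and 0.207 against 1.09 and 1.52. The summed counts of 13 and 71 gave a ratio of 5.81 after library size (95% interval 3.19 to 11.5, exact binomial, counting error only). The interval leaves out the spread between libraries and is no test of the lines, since the gene was chosen with this contrast known. The fitted log2 fold change was 2.60 (SE 0.66), with 2.25 and 2.78 within numbers. The gene passed the filter on low counts through the HER2 L755S libraries, so it entered the fit only because it was higher there. ALDH1A2 (chromosome 15, 57953424 to 58497866) had 1 count in all, in HER2 WT 2. ALDH1A3 (chromosome 15, 100877714 to 100916626) also had 1 count in all, in HER2 L755S 2. With 3 counts taken as the limit that a count of 0 allows, their level was below 0.0965 to 0.109 CPM, by library, wherever no read was found.

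Of the enzymes that degrade retinoic acid, CYP26B1 (chromosome 2, 72129238 to 72148038) was lower in the HER2 L755S libraries and CYP26A1 was barely detected. CYP26B1 stood at 31.2 and 32.5 CPM in wild-type libraries 1 and 2, and at 23.1 and 22.9 CPM in mutant libraries 1 and 2. The libraries agreed closely within each line and did not overlap between them, as was so for 36.2% of all tested genes. The means were 31.9 ± 0.924 and 23.0 ± 0.176 CPM (SD, n = 2), a log2 fold change of -0.47 (SE 0.32), with -0.43 and -0.51 within numbers. CYP26A1 (chromosome 10, 93073475 to 93077890), whose upstream match is printed above, had 0 and 6 counts in wild-type libraries 1 and 2 and 2 and 0 in mutant libraries 1 and 2. It was at 0 in 1 library of each line, so no direction could be read.

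On the TPM scale the CYP26B1 difference was larger, at 14.5 and 14.6 TPM in the wild-type and 9.23 and 7.55 TPM in the mutant libraries, a log2 difference of -0.79. TPM divides by transcript length, and the estimated mean length of CYP26B1 transcripts also differed. It was 3070 and 3041 bases in wild-type libraries 1 and 2, and 3441 and 3271 bases in mutant libraries 1 and 2. Both HER2 L755S values were above both wild-type values. Over all tested genes, 24.9% had mean lengths that did not overlap between the lines. GENCODE 29 lists 5 transcripts of the gene, 3 of 4025, 4331 and 4732 bases and 2 fragments of 567 and 574 bases. The annotation that the authors used is not given and may differ. With these transcripts, the mean would move with the shares that the quantification gave to the fragments and to each long form. Which transcripts those reads came from was not tested. TPM also lacks the TMM scaling of CPM. CRABP2, with a mean length of 976 to 982 bases in every library, moved as well, from a log2 value of 0.12 to -0.052 on TPM. How much of the CYP26B1 move came from length was not tested.

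The enzymes that exchange retinol and retinaldehyde were at low levels. RDH10 (chromosome 8, 73294612 to 73325281), the oxidizing enzyme, stood at 5.53 and 5.72 CPM in wild-type libraries 1 and 2, and at 6.26 and 6.70 CPM in mutant libraries 1 and 2. The groups did not overlap in CPM, and the log2 fold change was 0.20 (SE 0.38). In TPM the order was lost, with 2.59 and 4.21 TPM in the wild-type and 3.43 and 2.36 TPM in the mutant libraries, and the log2 difference was -0.21. The estimated mean transcript length of RDH10 ran from 1944 bases in HER2 WT 2 to 3086 bases in HER2 L755S 2, which moves TPM and not the counts. TPM also lacks the TMM scaling of CPM. DHRS3 (chromosome 1, 12567910 to 12617731), the reducing enzyme and itself a known retinoic acid target, had 31 and 19 counts in the wild-type and 37 and 7 in the mutant libraries. Its values overlapped, and the difference changed sign between numbers, at 0.40 for number 1 and -1.21 for number 2. Without HER2 L755S 1 its log2 fold change was -1.55, and without HER2 L755S 2 it was 0.64.

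**Figure D3:**
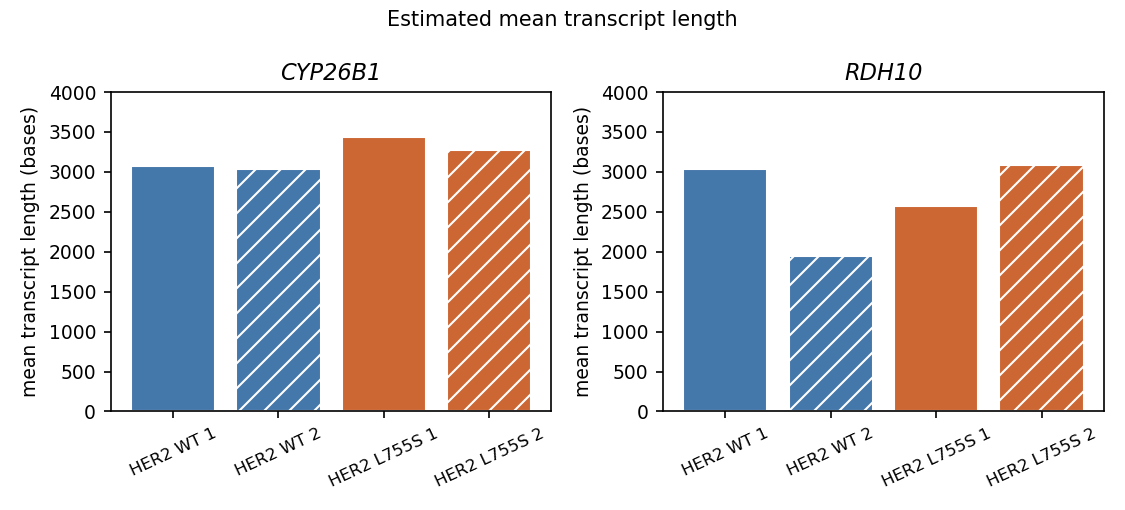
Estimated mean transcript length in bases (bars) of CYP26B1 and RDH10 in each library; blue is HER2 WT, orange HER2 L755S, hatched number 2. CYP26B1 is 3041 to 3070 bases in HER2 WT and 3271 to 3441 bases in HER2 L755S, and RDH10 has its lowest value, 1944 bases, in HER2 WT 2.

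Of the 6 tested genes, CRABP1, ALDH1A1 and RDH10 were higher and CYP26B1 was lower in both HER2 L755S libraries than in both HER2 WT libraries. Over all 16538 tested genes, 16.9% were higher and 19.3% lower in this sense, 36.2% in all. By the edgeR quasi-likelihood test with Benjamini-Hochberg adjustment over all tested genes, 1 of the 6 was called, CRABP1, where 1.69% of tested genes were called in either direction. This contrast was in view when the genes were chosen, so nothing is read from these counts. CRABP1 was not called without HER2 WT 2, and ALDH1A1 was called without HER2 L755S 1 and with no filter on low counts. An absolute log2 fold change above that of CRABP1 was found in 4.17% of tested genes, above that of ALDH1A1 in 1.65% and above that of CYP26B1 in 31.4%.

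**Figure D4:**
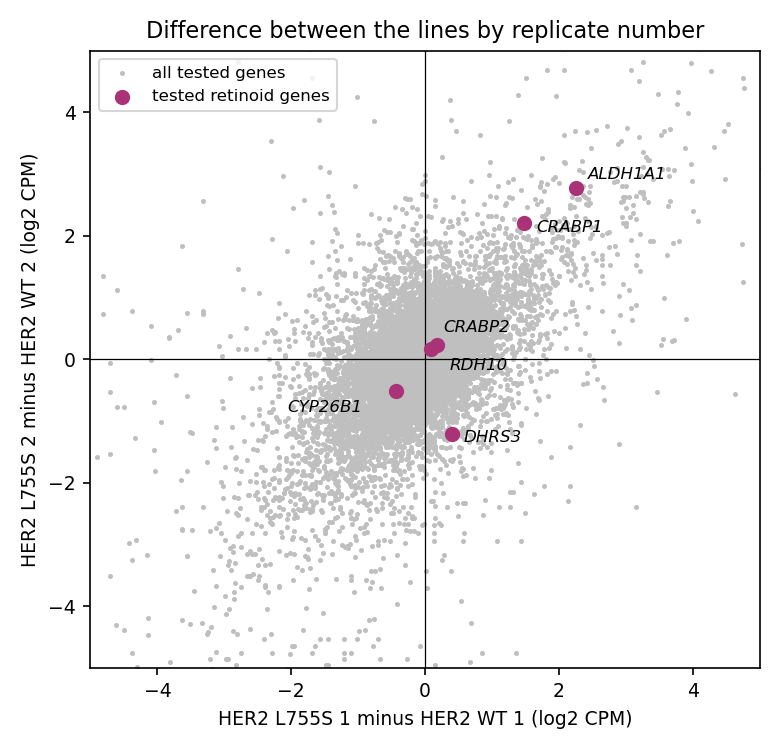
Difference in log2 CPM between the lines within number 1 (horizontal) and number 2 (vertical), for all tested genes (grey; 126 lie beyond the axes, which end at 5) and the 6 tested retinoid genes (purple). CRABP1 and ALDH1A1 lie at 1.48 and 2.20 and at 2.25 and 2.78, CYP26B1 lies below 0 on both axes, and DHRS3 lies on opposite sides of 0.

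The genes around CRABP1, ALDH1A1, CYP26B1 and RDH10 had medians smaller in size than the value of the gene itself, and those around CRABP2 and DHRS3 did not. The members were chosen with this contrast known, so this is a description. The 42 other tested genes that start within 2.5 Mb of CRABP1 had a median log2 fold change of 0.079, and none was called. The 11 around ALDH1A1 had a median of -0.055 and the 71 around CYP26B1 one of 0.10, with none called near either. Around CRABP2 the median of 86 genes was -0.21, with 2 called. Around DHRS3 it was -0.10 over 37 genes, with 2 called, beside -0.058 for DHRS3. Around RDH10 it was -0.11 over 12 genes, beside 0.20 for RDH10.

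The replicate number, which did not enter the choice of the genes, was tested in a fit with line and number. None of the 6 tested members passed (edgeR, Benjamini-Hochberg adjustment), while 18.2% of all tested genes did, 8.26% (1366 genes) higher and 9.94% (1644 genes) lower in number 2. Without scaling, the split over all genes was 833 higher and 1934 lower. At an unadjusted p under 0.05, 1 of the 6 passed, beside 5519 of all 16538 tested genes. DESeq2 and limma-voom called none of the 6. Over all genes, DESeq2 called 1070 higher and 1105 lower in number 2, and limma-voom 1504 and 1747. CRABP1 had the smallest p, with a log2 difference of number 2 from number 1 of -0.52 (SE 0.21, edgeR adjusted p = 0.10), made up of -0.88 in HER2 WT and -0.16 in HER2 L755S. DHRS3 had the largest difference, -1.29 (SE 0.62, edgeR adjusted p = 0.15). What the number stands for is not given in the labels.

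The genes most like CRABP1 and CRABP2 over the 4 libraries were sought among 10108 tested genes of at least 10 CPM on average, by the Euclidean distance between centred log2 CPM values. For CRABP1 they included CHRD (distance 0.36), P3H3 (0.376), ST3GAL5 (0.397) and AP001057.1 (0.402), with log2 fold changes of 1.5 to 1.67. CHRD, which encodes a BMP antagonist, stood at 7.66 and 5.47 CPM in the wild-type and at 20.5 and 19.4 CPM in the mutant libraries. For CRABP2 they were DIABLO, AFMID, MRPS16, KDELR1 and C22orf39, at distances of 0.0181 to 0.0267. With 4 values per gene, close matches are frequent.

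The question then was how the rest of the retinoid pathway stood in these lines, in 6 lists with 81 genes between them. Of these, 43 were tested and 17 had no count in any library. By edgeR's quasi-likelihood test, 1 of the 43 passed at an adjusted 0.05 as lower in the HER2 L755S line and 0 as higher, where 0.949% and 0.738% of all tested genes were. At an unadjusted p under 0.05, 8 were lower and 3 higher, beside 1068 lower and 674 higher among all 16538 tested genes. DESeq2 called 3 lower and 1 higher, beside 309 lower and 276 higher over all genes.

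Among the nuclear receptors, RXRA, RXRB and RARG had the highest levels, at means of 39.9, 30.1 and 26 TPM over the 4 libraries. Of 6 receptor genes 5 were tested, none passed, and their median log2 fold change was 0.075, beside 0.0032 over all tested genes. RARB, which encodes RAR-beta and is a classical retinoic acid target, was near the limit of detection. It had 3 and 1 counts in wild-type libraries 1 and 2 and 13 and 16 in mutant libraries 1 and 2, so the groups did not overlap. Its log2 fold change was 2.96 (SE 0.88, edgeR adjusted p = 0.15), and over the alternatives this p ran from 0.051 to 0.79. Like ALDH1A1, it passed the filter through the HER2 L755S libraries. The wild-type and mutant values of RARA overlapped, and it was lower in number 2 (log2 -0.63, edgeR adjusted p = 0.033).

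Of the 7 genes of retinol transport and uptake 2 were tested, and neither passed. RBP5, a retinol binding protein and 1 of these 2, stood at a mean of 1.18 TPM. RBP2, a relative known from the intestine, averaged 0.368 TPM and was not tested. STRA6, the membrane receptor for the retinol carrier, had 1 count in all libraries together, and RBP4, the carrier itself, had none.

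Of 25 other retinoid enzymes 11 were tested, none passed, and the median log2 fold change was 0.20. RDH11, a retinaldehyde reductase, stood highest with ADH5 and CYP1B1, at means of 99.3, 98.7 and 98.8 TPM. RDH11 was at 135 and 142 CPM in wild-type libraries 1 and 2 and at 209 and 261 CPM in mutant libraries 1 and 2 (log2 0.76, SE 0.30, edgeR adjusted p = 0.36, range 0.017 to 0.96 over the alternatives). The libraries did not overlap, and the difference did not pass the test. LRAT, which esterifies retinol for storage, had between 0 and 1.87 counts per library, and CYP26C1, the third CYP26 enzyme, had none.

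Among 20 genes known to be induced by retinoic acid, 1 of 12 tested passed, and it was lower. LAMB1, which encodes the laminin beta-1 chain, stood at 20.0 and 39.8 CPM in wild-type libraries 1 and 2 and at 3.42 and 4.44 CPM in mutant libraries 1 and 2. It fell by 2.93 on the log2 scale (SE 0.43, edgeR adjusted p = 0.0072), and passed under each of the 12 alternatives, at 3.6e-09 to 0.011. The list median was -0.21, with 0.058 within number 1 and -0.80 within number 2, so it did not keep its sign. The highest levels were those of RARRES3, PDCD4 and TNFAIP2, at means of 52.0, 45.3 and 34.4 TPM. RARRES3 was at 33.1 and 27.9 CPM in the wild-type and at 15.6 and 10.8 CPM in the mutant libraries, a log2 fold change of -1.21 (edgeR adjusted p = 0.14, range 6.9e-04 to 0.65). The transcription factor gene SOX9 was at 4.05 and 2.79 CPM in the wild-type and at 9.98 and 9.93 CPM in the mutant libraries, a log2 fold change of 1.54 (edgeR adjusted p = 0.092, range 0.0016 to 0.35). HOXA5, HOXB1 and HOXB2 had no count.

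**Figure D5:**
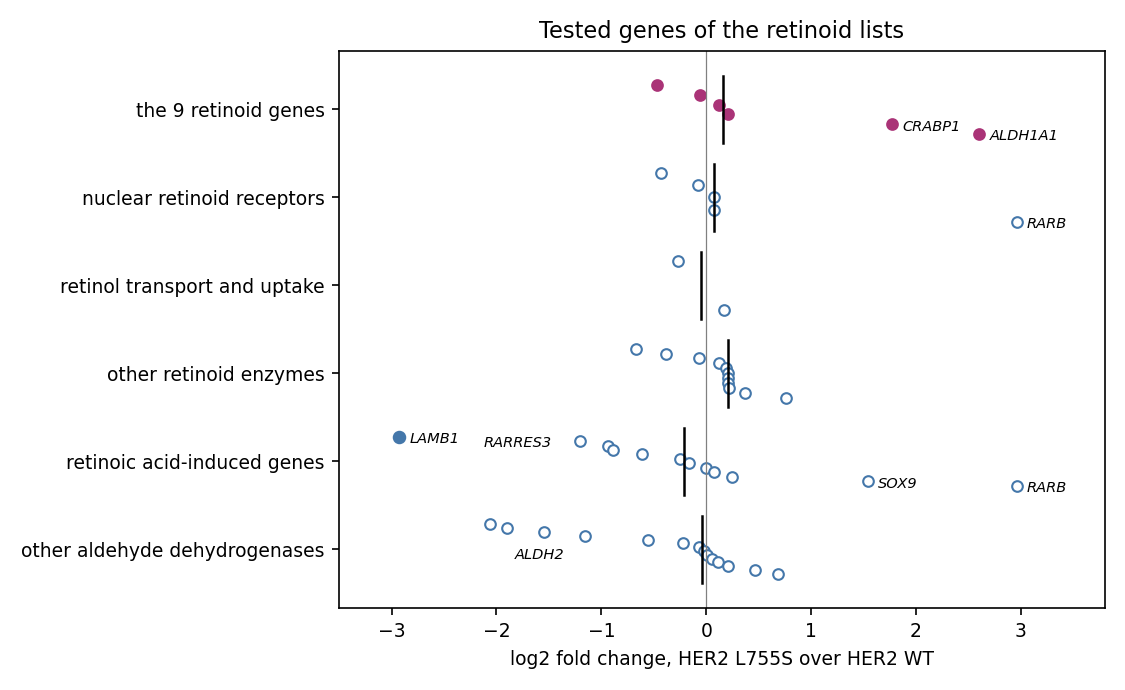
Log2 fold change of HER2 L755S over HER2 WT (horizontal) for the tested genes of each list, 1 point per gene with the list median as a black bar; filled blue points passed the edgeR test, open points did not, and purple points are the 6 of the 9 retinoid genes that entered the fit, shown without a test. LAMB1 at -2.93 is the filled blue point.

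The closest relatives of the members by family were also examined. None of the 10 genes of intracellular fatty acid binding proteins, the family to which CRABP1 and CRABP2 belong, was high enough to test, and the highest 3, FABP3, FABP9 and FABP12, averaged 0.602, 0.52 and 0.102 TPM. FABP5, which can carry retinoic acid to another nuclear receptor, had 1 count in the 4 libraries. Of 15 other aldehyde dehydrogenases 14 were tested, none passed, and the median log2 fold change was -0.044. ALDH3B2, ALDH7A1 and ALDH9A1 were the highest, at means of 497, 115 and 60.3 TPM. ALDH2, the mitochondrial enzyme of ethanol metabolism, was at 46.9 and 31.7 CPM in wild-type libraries 1 and 2 and at 18.1 and 8.80 CPM in mutant libraries 1 and 2. Its log2 fold change was -1.54 (SE 0.42, edgeR adjusted p = 0.10, range 6.6e-05 to 0.47). ALDH2 was called without HER2 L755S 1 or HER2 WT 2 (edgeR adjusted p = 0.0098 and 0.015), with no filter (0.0062), with DESeq2 (0.014) and with the number as a block (6.6e-05). The block also gave the lowest p of the ranges of RDH11, RARRES3 and SOX9. In all, 4 of the 14 were lower and 1 was higher in both mutant libraries than in both wild-type libraries, beside the 19.3% and 16.9% of all tested genes. The other lower genes were the scarcer ALDH1L2, ALDH3B1 and ALDH1B1, with log2 fold changes of -2.06, -1.90 and -1.16 (edgeR adjusted p = 0.19, 0.11 and 0.27). ALDH1L2 had 30 and 40 counts in wild-type libraries 1 and 2 and 9 and 6 in mutant libraries 1 and 2. It passed the filter through the HER2 WT libraries, so it entered the fit only because it was higher there. The higher one was ALDH4A1, a mitochondrial enzyme of proline breakdown, at 120.5 and 92.3 CPM in the wild-type and at 205 and 137 CPM in the mutant libraries (log2 0.68, edgeR adjusted p = 0.53). SOX9 and RARRES3 were also called by DESeq2 (adjusted p = 0.013 and 0.042).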

How the data were processed

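Per the file headers, RSEM wrote the deposited tables: an expected count per gene (fractions arise from shared reads), the TPM that the authors computed from it, and a mean transcript length weighted by the estimated share of each transcript. The deposited FPKM values were not used. STAR, edgeR and GRCh38 appear in the submitters' processing notes, without versions or roles. Neither annotation release nor strand setting is given in the sources used here, and antisense neighbours could share reads. Per the labels' protocols, poly(A) RNA was taken from 250 ng of total RNA. The number 2 tables are named as merged, without saying of what. The expected count of CRABP1 was not whole, so some of its reads were shared with other sequences.

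Expected counts were rounded. Genes were kept with filterByExpr and scaled with TMM (factors 0.937 to 1.04). The line comparison used edgeR 4.0.16 in R 4.3.3 (quasi-likelihood, two-sided), with no term for the number. Benjamini-Hochberg adjustment ran over the 16538 tested genes, with a threshold of 0.05. The number was tested in a fit with line and number. The SE is the log2 fold change divided by the square root of the F statistic. Differences within numbers are on log2 CPM with a prior count of 0.5.

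In simulated counts for the line comparison (16538 genes), 14% of genes changed 2-fold and 94% of those changed 4-fold were recovered, and 17 of 171 calls were false. For the number the shares were 10% and 84%, and 15 of 161 calls were false. The changed genes were drawn from those with a mean count of at least 50. The shares therefore do not cover scarce genes such as ALDH1A1, DHRS3 and RARB. The spread was estimated with line alone, so it included the difference between numbers, and the shares for the number need not hold for its fit.

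Alternatives were DESeq2 size factors, no scaling, DESeq2 1.42.0, limma-voom (limma 3.58.1), no filter, at least 50 counts in 2 libraries, the number as a block, leaving out each library, and for the 9 genes a prior count of 2 and log2 TPM with a pseudocount of 0.1. A run without mitochondrial genes was added after the data were seen. The members and lists were chosen with earlier results of these data known. Named are the 9 members, list genes past the test, the 3 of each list with the highest mean TPM, and the 5 genes most like CRABP1 and CRABP2. RARB, SOX9, RARRES3, ALDH2, ALDH1L2, ALDH3B1, ALDH1B1, ALDH4A1, NRIP1, ELF3, DGAT1, RARA, RBP2, STRA6, RBP4, LRAT, CYP26C1, FABP5 and the HOX genes, where outside that rule, were chosen after their values were seen. A few genes that the rule names are not reported here. GENCODE 29 (GRCh38) gave the gene positions, and promoter sequences from RefSeq on GRCh38.p14.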

Additional observations from a re-analysis of the deposited data

How the results depend on the processing

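The counts of called genes moved with the method. Against 122 higher and 157 lower genes, DESeq2 called 276 and 309, no filter 328 and 431, and the replicate number as a block 725 and 1018. Leaving out 1 library gave 160 to 220 higher and 184 to 328 lower genes, with the spread of the lone library taken from the other line. In the 6 lists, against 0 higher and 1 lower, DESeq2 and no filter each called 1 and 3, the block 3 and 10, and leaving out 1 library 0 higher and 1 to 3 lower. With the block, which called 1743 of the 16538 tested genes, CRABP1 and ALDH1A1 were the members called. The members were chosen with this contrast in view, so nothing is read from their calls. ALDH1A1 also passed the filter only through the HER2 L755S libraries. The list genes called with the block as higher were RDH11, SOX9 and ALDH4A1. Those called as lower were LAMB1, ALDH2, RARRES3, ALDH3B1, ALDH1B1, ALDH1L2, NRIP1, ELF3, DGAT1 and PDCD4 (edgeR adjusted p from 6.0e-07 for LAMB1 to 0.049 for ALDH1L2). ALDH1L2 passed the filter only through the HER2 WT libraries, so nothing is read from its call. The labels do not say that the number pairs the libraries. The deviations of same-numbered libraries from their line means correlated at r = 0.425 across 16538 genes, which are not independent.

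For the replicate number, against 1366 higher and 1644 lower genes, no scaling gave 833 higher genes and no filter 741 higher and 964 lower. Leaving out a library was not run for it, since no residual degrees of freedom remain.

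CRABP1 and CYP26B1 kept their sign under all 14 alternatives and ALDH1A1 under all 13 that could be fitted. Leaving out 1 library gave 1.41 to 2.28 for CRABP1, 2.34 to 2.82 for ALDH1A1 and -0.51 to -0.43 for CYP26B1. On log2 TPM, ALDH1A1 was 1.79, CYP26B1 -0.79, CRABP2 -0.052 and RDH10 -0.21. Without scaling CYP26B1 was -0.54, CRABP2 0.054 and RDH10 0.13. Leaving out 1 library gave -0.032 to 0.31 for CRABP2, 0.15 to 0.25 for RDH10 and -1.55 to 0.64 for DHRS3. The sign of CRABP2, RDH10 and DHRS3 is therefore not settled here. Other scalings moved the median of all genes by -0.071 to 0.020. The counts of ALDH1A1, DHRS3 and RARB, all under 40 per library, limit the precision of their values.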
